A study of Mus musculus with 12 samples.

Results

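The genes described here are 9 genes known for their induction by type I interferon, Mx1, Ifit1, Ifit3, Isg15, Irf7, Oasl2, Stat2, Usp18 and Rsad2. They were chosen by name, out of 51734 gene symbols in the deposited tables, and the estimated read counts of all transcripts carrying each symbol were added up in every library. All 9 had counts in all 12 libraries and passed the filter on low counts in each fit. The tumor group holds 9 libraries of T cell acute lymphoblastic leukemia (T-ALL) from the thymus of mice with tetracycline-inducible IL-7Rα, in which doxycycline switches the interleukin-7 receptor alpha chain on, and the control group holds 3 libraries of thymus from healthy mice. All 12 libraries carry the strain label F5, and the labels name neither the cells in which the transgene is driven nor the animals behind each number, so the p-values below measure the spread between libraries, which may be technical. Polyadenylated RNA was read as pairs of 75 bases.

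Type I interferons bind a receptor made of IFNAR1 and IFNAR2, whose kinases JAK1 and TYK2 phosphorylate STAT2. With IRF9 it takes part in the complex ISGF3, which binds the interferon-stimulated response element in the promoters of induced genes. The induced genes hold antiviral effectors, further signal proteins such as IRF7, and brakes such as USP18. Because the interleukin-7 receptor also signals through JAK1, the level of JAK1-dependent genes is of interest in leukemias driven by it. In the thymus, interferon is known to be made at low levels by epithelial and dendritic cells.

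The start-site regions of the genes that moved together most closely are shown because they differ in matches to the core of this response element. RefSeq (GRCm38.p6) promoter windows, from 250 bases before to 50 bases after the start, were held for 7 of the 9 genes, and none was printed for Mx1 and Usp18. The core GAAANNGAAA, searched on both strands with N as any base, was found in 5 of the 7 windows, against 3.44% of 32851 promoter windows of the same length. A second element, TTCNNNGAA, which STAT dimers are known to bind, was in 0 of 7 windows, against 8.30% of all. The 4 windows below are those of Ifit3 and Isg15, whose levels were closely correlated across tumors and which hold the core, and of Irf7 and Oasl2, whose levels were also closely correlated and which do not hold it. They lie at chr19:34583279-34583578 (plus strand), chr4:156200769-156201068 (minus strand), chr7:141266375-141266674 (minus strand) and chr5:114896684-114896983 (plus strand). Capitals mark GAAANNGAAA or its complement.
Ifit3: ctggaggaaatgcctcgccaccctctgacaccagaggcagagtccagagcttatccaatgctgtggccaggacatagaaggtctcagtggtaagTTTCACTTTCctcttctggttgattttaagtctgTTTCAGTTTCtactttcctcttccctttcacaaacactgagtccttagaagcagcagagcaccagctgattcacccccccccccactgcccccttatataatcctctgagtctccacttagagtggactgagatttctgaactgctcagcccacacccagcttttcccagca
Isg15: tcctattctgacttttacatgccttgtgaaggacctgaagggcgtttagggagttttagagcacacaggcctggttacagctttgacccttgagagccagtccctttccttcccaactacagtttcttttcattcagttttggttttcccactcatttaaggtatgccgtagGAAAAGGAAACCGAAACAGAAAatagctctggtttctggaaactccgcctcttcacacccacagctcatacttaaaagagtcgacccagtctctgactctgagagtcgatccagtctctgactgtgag
Irf7: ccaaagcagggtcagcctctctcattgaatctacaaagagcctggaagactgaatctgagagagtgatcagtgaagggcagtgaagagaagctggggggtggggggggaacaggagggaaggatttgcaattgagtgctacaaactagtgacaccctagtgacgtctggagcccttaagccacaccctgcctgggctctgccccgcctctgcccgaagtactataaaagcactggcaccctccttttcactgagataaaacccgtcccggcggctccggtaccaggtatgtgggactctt
Oasl2: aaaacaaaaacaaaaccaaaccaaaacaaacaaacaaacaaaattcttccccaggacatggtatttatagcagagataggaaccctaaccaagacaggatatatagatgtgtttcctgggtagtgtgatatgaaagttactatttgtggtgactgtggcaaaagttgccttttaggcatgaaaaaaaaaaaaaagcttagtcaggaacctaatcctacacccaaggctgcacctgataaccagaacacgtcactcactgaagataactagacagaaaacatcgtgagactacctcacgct
Ifit3 held the core at bases -156 and -122 from the start, and Isg15 held 3 overlapping copies at -78, -72 and -66. Ifit1 held it at -104 and -85, Stat2 at -222 and Rsad2 at -120. Across this split, Isg15 had a Pearson r of 0.817 with Irf7 and 0.806 with Oasl2 over tumors 1 to 6. Ifit3 had 0.802 with Irf7 and 0.754 with Oasl2, so genes with and without the core were correlated too. A match of letters is a description of the window and was not tested for binding. A window without a match does not show that the gene lacks the element.

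The libraries fell into 2 kinds by content. In tumors 1 to 6 mitochondrial transcripts took 31.6% to 69.3% of the counts and satellite-like models 0.115% to 2.43%, whereas tumors 7 to 9 and the 3 controls held 29.8% to 59.4% satellite-like counts and 0.0948% to 11.1% mitochondrial counts. Library totals were 11617724 to 34769946 counts in tumors and 8133152 to 12019924 counts in controls. The 10 T cell marker genes summed to 1722 to 2194 CPM (read counts scaled to a common library size) in tumors 1 to 6, between 61.0 and 135 CPM in tumors 7 to 9 and 40.7 to 99.8 CPM in the controls, so the control thymus libraries held few T cell transcripts for their tissue. Il7r, the induced gene, had 33.3 to 513 CPM in tumors 1 to 6, between 5.03 and 5.62 CPM in tumors 7 to 9 and 2.51 to 3.20 CPM in the controls. The scaling used trimmed mean of M-values (TMM) factors. Tumors 1 to 6 and tumors 7 to 9 are not groups of the study, and each was set against the controls separately beside the comparison of all 9 tumors. Content kind and tumor group cannot be told apart in tumors 1 to 6, since no control had their content.

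Stat2, the gene of the interferon signal carrier of ISGF3, had the narrowest range of the 9 genes over tumors 1 to 6, as highest over lowest (2.49). Stat2 had a lowest level of 12.4 CPM (tumor 5), a median of 15.8 and a highest of 30.9 CPM (tumor 3) in tumors 1 to 6, 11.4, 11.5 and 9.19 CPM in tumors 7 to 9, and 8.86, 10.4 and 9.92 CPM in the controls. All 6 of the first tumors lay above every control, and tumors 7 to 9 overlapped the controls. Irf7, the gene of the transcription factor that amplifies interferon production, had a lowest level of 1.40 CPM (tumor 5), a median of 5.25 and a highest of 9.01 CPM (tumor 4) in tumors 1 to 6. It had 2.31, 2.37 and 1.78 CPM in tumors 7 to 9 and 3.21, 2.29 and 2.39 CPM in the controls. Of tumors 1 to 6, 5 lay above the highest control and tumor 5 lay below the lowest.

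Mx1, a dynamin-like GTPase that blocks influenza viruses in mice that carry a working allele, had the widest range in CPM. Highest over lowest in tumors 1 to 6 was 15.39 for Mx1 and nearly the same, 15.37, for Oasl2. The levels of Mx1 in tumors 1 to 6 were 8.82, 6.38, 25.5, 10.6, 59.3 and 98.1 CPM, against 4.63, 5.52 and 5.06 CPM in the controls. The 1488 counts of tumor 5 and the 1540 counts of tumor 6 stood far above the 48.9 to 206 counts of tumors 1 to 4. Tumors 7 to 9 had 4.74, 6.31 and 6.73 CPM, of which tumor 7 lay within the range of the controls. Mx2, a nearby gene on chromosome 16 and no member of the set, had 6.80, 6.73, 22.3, 10.3, 131 and 50.3 CPM in tumors 1 to 6 and 2.47 to 3.28 CPM in the controls, so the same 3 tumors (3, 5 and 6) were high for both. Mx2 is annotated as a polymorphic pseudogene in the annotation used. Fam3b, which lies between Mx1 and Mx2, reached 10.1 CPM in tumor 5 and stayed at 0.319 to 0.855 CPM in the other 5 tumors. Past Mx2, Tmprss2 had 8.93 and 8.86 CPM in tumors 5 and 6 and 1.43 to 3.42 CPM in tumors 1 to 4, and Ripk4 had 19.4 and 12.9 CPM in tumors 3 and 5 and 0.128 to 2.03 CPM in the other 4. On the other side of Mx1, Bace2 had 1.60, 1.17, 0, 0.819, 0.598 and 0.191 CPM in tumors 1 to 6. Dscam, further out on that side, had 4.52, 3.90, 1.61, 3.84, 0 and 0 CPM, so neither was raised in tumors 3, 5 and 6.

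Ifit1 and Ifit3, whose proteins are known to bind viral RNA or partner in that binding, were both highest in tumor 4 among tumors 1 to 6. Ifit1 had 6.94, 6.94, 4.13, 19.8, 2.80 and 2.27 CPM in tumors 1 to 6, 23.2, 14.4 and 8.20 CPM in tumors 7 to 9, and 9.80, 4.65 and 4.60 CPM in the controls. Tumors 7 and 8 lay above every control, and tumor 9 lay below control 1. Ifit3 had 5.2, 2.24, 1.61, 7.05, 0.673 and 0.956 CPM in tumors 1 to 6, 1.93, 1.48 and 1.69 CPM in tumors 7 to 9, and 1.13, 1.52 and 2.29 CPM in the controls. Tumors 1 and 4 lay above the controls, tumors 5 and 6 below them. Both genes have close paralogs (Ifit3b, Ifit1bl1), with which kallisto may have split reads, so their values are uncertain to that extent.

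Rsad2, which encodes the antiviral enzyme viperin, had a lowest level of 1.09 CPM (tumor 6), a median of 1.96 and a highest of 3.35 CPM (tumor 4) in tumors 1 to 6. It had 5.47, 2.96 and 3.46 CPM in tumors 7 to 9 and 3.03, 3.58 and 3.08 CPM in the controls. On all transcripts summed, none of tumors 1 to 6 exceeded the highest control. The coding share of these counts was 46.5% to 100% in tumors 1 to 6 and 10.2% to 54.0% in the controls, so this order need not hold for coding transcripts. Oasl2, an oligoadenylate synthetase-like protein, had 10.2, 6.25, 4.06, 9.38, 0.662 and 6.63 CPM in tumors 1 to 6, 9.60, 16.4 and 9.69 CPM in tumors 7 to 9, and 12, 7.78 and 8.45 CPM in the controls. Tumor 5 stood lowest with 16.6 counts, and none of tumors 1 to 6 exceeded the highest control.

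Isg15 encodes a ubiquitin-like modifier, and Usp18 the protease that removes it and that also brakes the interferon receptor. Isg15 had 2.91, 1.73, 0.900, 3.11, 0.650 and 1.01 CPM in tumors 1 to 6, 6.04, 3.21 and 3.45 CPM in tumors 7 to 9, and 4.52, 2.39 and 2.37 CPM in the controls. The tumor 1 to 6 values rest on 7.29 to 27.2 counts, and 4 of these 6 tumors lay below the lowest control. Usp18 had 5.05, 7.56, 8.89, 9.67, 17.0 and 5.17 CPM in tumors 1 to 6, 1.18, 1.93 and 1.46 CPM in tumors 7 to 9, and 1.48, 1.42 and 2.33 CPM in the controls. All 6 of the first tumors exceeded every control, and tumor 5 held the highest level with 427 counts. The modifier and its protease therefore had their lowest and their highest level in the same tumor. The Isg15 level there had a 95% Poisson interval of 0.364 to 1.035 CPM, which overlapped the intervals of tumors 2, 3 and 6.

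**Figure D1:**
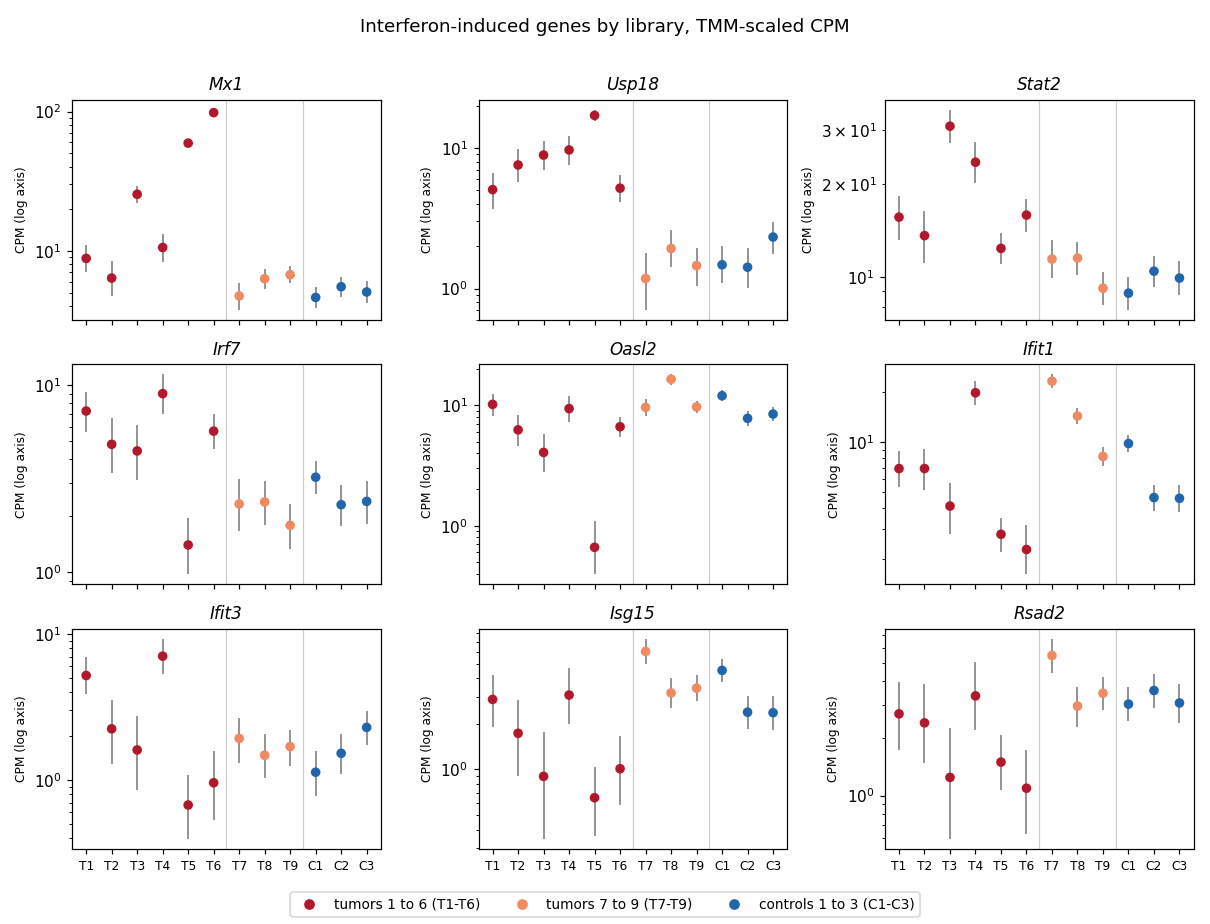
Each panel plots 1 gene, with TMM-scaled CPM on a log axis against the library, in tumors 1 to 6 (dark red), tumors 7 to 9 (orange) and controls 1 to 3 (blue), and bars are exact 95% Poisson intervals, which cover counting error only. Mx1 was highest in tumor 6 (98.1 CPM) and Usp18 in tumor 5 (17.0 CPM), whereas Irf7, Ifit1, Ifit3, Isg15 and Rsad2 were highest in tumor 4 among tumors 1 to 6.

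Many of these levels were low, and a yardstick for stray reads was taken from 1412 olfactory and vomeronasal receptor genes, which thymus is known to lack. The median receptor gene had 0 to 3.57 counts per kilobase in tumors 1 to 6, between 12.1 and 21.3 in tumors 7 to 9 and 17.1 to 19.6 in the controls. As multiples of that density, Usp18 stood at 7.48 to 37.9 in tumors 1 to 4. It stood at 151 in tumor 6, whose receptor median was only 0.303 counts per kilobase, and tumor 5 is left out because its receptor median was 0. Its multiples were 0.955 to 1.95 in tumors 7 to 9 and 1.19 to 1.90 in the controls. Irf7 stood at 4.03 to 13.3 in tumors 1 to 4 and at 90.6 in tumor 6. It stood between 0.769 and 1.31 in tumors 7 to 9 and at 1.05 to 1.53 in the controls. Ifit3 and Rsad2 were likewise at 1.16 to 1.87 in tumors 7 to 9 and 0.995 to 1.90 in the controls. Between 21.7% and 69.1% of the receptor genes had at least the density of Irf7, Usp18, Ifit3 or Rsad2 in each control and in tumors 7 to 9, so the levels of these 4 genes there lay within the range of stray reads. For Mx1 the share in those libraries was 17.9% to 23.6%, so its level there was not clear of stray reads either. In tumors 1 to 6 the share was 3.97% to 15.5% for Irf7 and 16.9% to 34.6% for Rsad2. Rsad2 stood at 1.56 to 3.82 times the receptor median in tumors 1 to 4, so its level was not clear of stray reads there either.
Isg15 was the member furthest above the yardstick in the controls, at 4.55 to 9.21 times the receptor median, with 6.41 to 11.5 times in tumors 7 to 9. Oasl2 stood at 3.69 to 5.91, Ifit1 at 2.51 to 5.68, Stat2 at 3.10 to 3.51 and Mx1 at 2.10 to 2.41 times it in the controls. On levels per kilobase, Isg15 averaged 4.10 ± 1.63 CPM per kilobase in the controls, Oasl2 3.01 ± 0.725, Ifit1 2.39 ± 1.13, Stat2 2.22 ± 0.183 and Mx1 1.5 ± 0.132 (SD, n = 3 each). Isg15, Oasl2 and Ifit1 overlapped in this order. All values per kilobase divide by the longest transcript of each gene (4397 bases for Stat2), whichever transcript held the counts. On TPM, where lengths are taken per transcript, Stat2 had 30.5, 62.1 and 54.3 in the controls. Isg15 had 13.8, 9.57 and 8.97 TPM there, so the order depends on the length used. In tumors 1 to 6 the order per kilobase was led by Mx1 at 10.3 ± 10.9, followed by Usp18 at 5.02 ± 2.49 and Stat2 at 4.24 ± 1.62 CPM per kilobase (SD, n = 6 each), with spreads that overlapped.

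**Figure D2:**
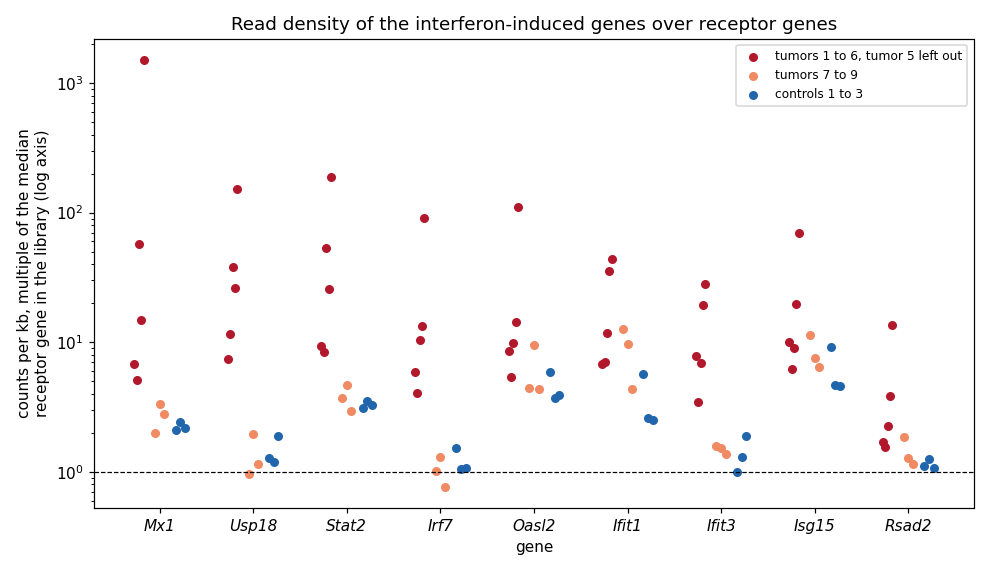
The plot gives the counts per kilobase of each gene as a multiple of the median receptor gene of the same library (log axis, dashed line at 1), for tumors 1 to 6 without tumor 5 (dark red), tumors 7 to 9 (orange) and controls (blue). Irf7 and Usp18 lie between 0.769 and 1.95 in tumors 7 to 9 and between 1.05 and 1.90 in the controls, and between 4.03 and 151 in tumors 1, 2, 3, 4 and 6.

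The first comparison asked whether tumors as a group differed from control thymus. None of the 9 genes passed edgeR's quasi-likelihood F test at a Benjamini-Hochberg adjusted p under 0.05 when 9 tumors were set against 3 controls. Over all 40484 genes 0 were called higher and 2 lower (0.00494%), while 18.0% (7297 genes) had an unadjusted p under 0.05, as did 2 of the 9 members. Mx1 had the highest log2 fold change, tumor over control, at 2.31 ± 1.01 (SE; adjusted p = 0.216), followed by Usp18 at 1.88 ± 0.78 (adjusted p = 0.186). The other 7 lay between -0.28 (Isg15) and 0.71 (Stat2), and all 9 lay above the median of all genes, -0.45. Fewer cells of a type and less RNA per cell cannot be told apart in these bulk samples. DESeq2 called 4079 genes higher and 53 lower but none of the 9 members, and limma on log2(TPM + 1), a scale not corrected for content, called 125 higher and 32091 lower with 7 of the members among the lower.

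In tumors 1 to 6 against controls Mx1 and Usp18 were higher and no other member passed the test. These 2 of 9 genes compare with 19.6% of 38522 genes called higher and 20.3% called lower, and with 39.9% called in either direction, so the count of members is near or below that background. At an unadjusted p under 0.05 it was 2 of 9 members, next to 54.2% of all genes. Mx1 averaged 34.8 ± 36.8 CPM in tumors 1 to 6 (SD, n = 6), against 5.07 ± 0.447 CPM in the controls (SD, n = 3), a log2 fold change of 2.62 ± 0.90 (SE; edgeR adjusted p = 0.0344). Usp18 averaged 8.89 ± 4.40 CPM in tumors 1 to 6 (SD, n = 6), against 1.74 ± 0.507 CPM in the controls (SD, n = 3), a log2 fold change of 2.10 ± 0.52 (SE; edgeR adjusted p = 0.00663). Stat2 had a log2 fold change of 0.60 ± 0.32 (SE, adjusted p = 0.132) although its tumors lay above every control. This value adds up all Stat2 transcripts, and retained-intron ones held most of the control counts but a minority in these tumors. Counting only protein-coding transcripts, the edgeR fit of all 9 tumors gave Stat2 1.53 ± 0.65 (SE, adjusted p = 0.161), where all transcripts gave 0.71. Whether Stat2 would be called on coding transcripts in tumors 1 to 6 was not tested. Irf7 had 0.71 ± 0.50 (adjusted p = 0.230). Isg15 at -1.20, Rsad2 at -0.98 and Oasl2 at -0.94 had adjusted p values of 0.103, 0.114 and 0.158 and are not called. The median of all genes in that fit was -1.29, and all 9 members lay above it.
The Mx1 call was lost without tumor 6 (log2 fold change 1.84, adjusted p = 0.0618) and without control 1, 2 or 3 (adjusted p = 0.110, 0.0904 and 0.0990), whereas the Usp18 call held in all 9 fits with 1 library left out, at adjusted p values of 0.00428 to 0.0400. The direction depended on scaling: with library totals, under which the median of all genes was -3.70, Usp18 stood at -0.15, Mx1 at 0.70 with no call, and 7 of the 9 members were called lower, and on log2(TPM + 1) Usp18 stood at -1.11 and Mx1 at -0.62. Relative to the median of all genes, all 9 members lay above it with TMM, RLE and library totals, and 4 of 9 did on log2(TPM + 1), where that median was -1.40. With RLE factors Mx1 and Usp18 were called higher as with TMM, and Isg15 and Rsad2 were called lower.

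In tumors 7 to 9 against controls, libraries of like content, none of the 9 members was called, against 0.0247% of 36420 genes called higher and the same share lower (0.0494% in either direction). At an unadjusted p under 0.05 there were 3292 genes (9.04%) and 1 member, Ifit1, whose log2 fold change was 1.26 ± 0.41 (SE; edgeR adjusted p = 0.413). Ifit1 averaged 15.3 ± 7.56 CPM in tumors 7 to 9, against 6.35 ± 2.99 CPM in the controls (SD, n = 3 each). The other 8 members lay between -0.31 (Irf7) and 0.43 (Isg15), next to a median of all genes of -0.01. Both partial comparisons use the same 3 controls.

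**Figure D3:**
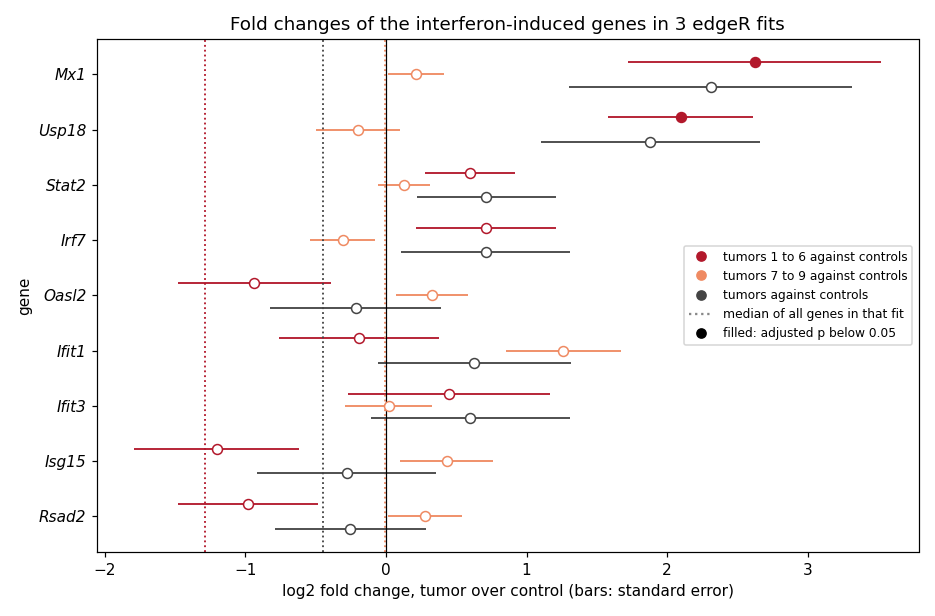
The plot gives the edgeR log2 fold change, tumor over control, of each gene with its standard error, in tumors 1 to 6 (dark red), tumors 7 to 9 (orange) and all 9 tumors (grey), with the median of all genes in each fit as a dotted line and filled points for adjusted p under 0.05. The filled points are Mx1 (2.62) and Usp18 (2.10) in tumors 1 to 6.

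Across tumors 1 to 6 the 9 genes did not move as 1 group. Ifit1, Ifit3, Isg15, Irf7, Oasl2 and Rsad2 were high in tumor 4 and, mostly, tumor 1 and low in tumors 5, 6 or 3, while Mx1 was high in tumors 6, 5 and 3 and Usp18 in tumor 5. Tumor 4 had the highest level of 5 of the 9 members and tumor 5 the lowest level of 5. Of the 36 pairs of members, 10 had a Pearson r of at least 0.8 on log2(CPM + 1), all of them among the members other than Mx1 and Usp18, and 15 pairs had a negative r. Mx1 or Usp18 was in 15 pairs, of which 14 were negative, and 20 of the 21 other pairs were positive. The median r was 0.305 over the 36 pairs and 0.754 over those 21, where the split was made after seeing the values.
Irf7 and Oasl2 had the highest correlation, with r = 0.978 and Spearman's rho = 0.943 (exact permutation p = 0.00417 and 0.0167, unadjusted, 36 pairs computed, n = 6), and r = 0.947 without the 2 tumors farthest from the median of Irf7. That r is of all transcripts. Retained-intron transcripts held 0% to 77.1% of the Irf7 counts and 27.0% to 78.7% of the Oasl2 counts in these tumors. Whether the pair is as close on coding transcripts alone was not tested. Ifit3 and Isg15 had r = 0.972 and rho = 0.943 (exact permutation p = 0.00417 and 0.0167, n = 6), and r = 0.857 without tumors 1 and 4. Ifit1 and Rsad2 had r = 0.918 and rho = 0.886 (exact permutation p = 0.00833 and 0.0333, n = 6), and r = 0.854 without tumors 4 and 6. Mx1 and Rsad2 lay at the other end with r = -0.844 and rho = -0.714 (exact permutation p = 0.0597 and 0.136, n = 6), and Oasl2 and Usp18 had r = -0.821 and rho = -0.657 (exact permutation p = 0.05 and 0.175, n = 6), which went to 0.05 without tumors 1 and 5. The 2 genes of the less common pattern had r = 0.193 with each other (rho = 0.257, exact permutation p = 0.706 and 0.658, n = 6). Stat2 had no r of 0.8 or more with another member. The r values of Rsad2 rest on levels that were not clear of stray reads in these tumors.

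**Figure D4:**
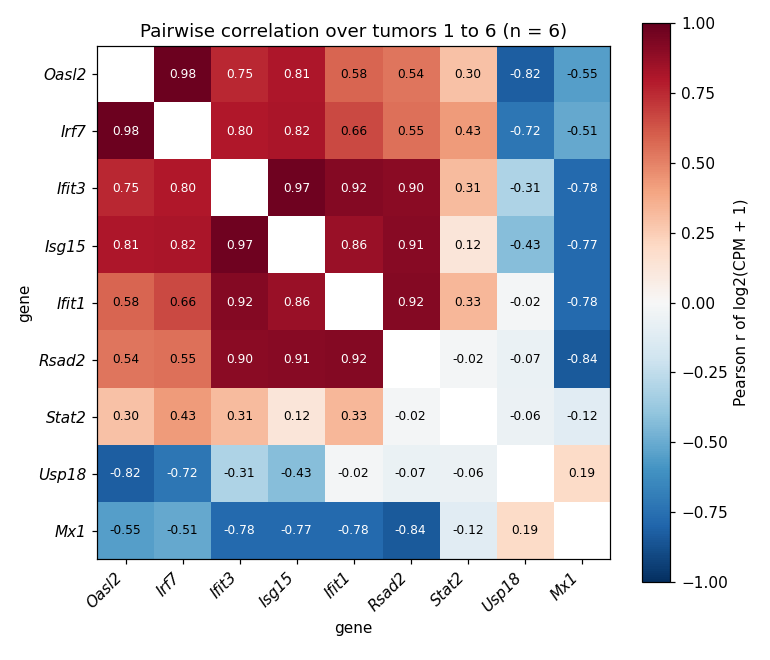
The heat map gives Pearson's r of log2(CPM + 1) over tumors 1 to 6 for every pair of the 9 genes (red positive, blue negative). The block from Oasl2 to Rsad2 is positive, with 0.978 for Irf7 and Oasl2, and the Mx1 row is negative except for its r of 0.193 with Usp18.

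A high r is common over so few tumors. Of 20493 genes with at least 1 CPM on average, 5.19% had r of 0.8 or more with Irf7, 6.9% with Oasl2, 10.6% with Isg15, 9.61% with Ifit3, 5.44% with Ifit1 and 8.55% with Rsad2, 5.67% with Stat2, 3.95% with Mx1 and 4.46% with Usp18. Of the 8 other members, Isg15 had 5 at that level, Ifit3 had 4, Ifit1, Irf7 and Rsad2 had 3 each, Oasl2 had 2, and Stat2, Mx1 and Usp18 had 0. Content varied along the same axis: mitochondrial transcripts took 69.3%, 66.7% and 66.5% of the counts in tumors 1, 2 and 4 and 48.5%, 41.3% and 31.6% in tumors 3, 5 and 6. The median r was 0.280 with totals taken outside mitochondrial and satellite-like counts and 0.257 with the receptor density subtracted. It was 0.117 without tumor 4 and 0.581 without tumor 3, and 0.0573 when only transcripts annotated as protein-coding were counted. Of the 6 tumors left out in turn, tumors 3 and 4 moved the median most.

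The 10 non-member genes whose pattern was most like the mean standardised level of the 9 members, among 7488 protein-coding genes of at least 5 CPM and a 2-fold range over tumors 1 to 6, were Pitpnc1, Msrb2, H2-Q4, Ccl5, Tnfrsf26, Gimap3, Ptprk, Oas2, Tgtp2 and Irf2bpl, with r of 0.953 to 0.977 (n = 6 tumors). Oas2, an oligoadenylate synthetase, had 6.73, 5.47, 2.47, 13.9, 0.717 and 2.29 CPM in tumors 1 to 6, against 3.03 to 3.81 CPM in the controls. Tgtp2, an interferon-gamma-inducible GTPase, had 14.8 CPM in tumor 4, with 1.25 to 5.37 CPM in the other 5 tumors and 1.26 to 3.11 CPM in the controls. Ccl5, a T cell and NK cell chemokine, had 21.3 CPM in tumor 4, with 0.359 to 3.10 CPM in the other 5 and 0.563 to 1.32 CPM in the controls. H2-Q4, a class Ib MHC gene with close paralogs that may share its reads, had 129 CPM in tumor 4, with 36.7 to 60.4 CPM in the other 5 and 28.7 to 54.6 CPM in the controls. All 10 were highest in tumor 4, which is not independent of how they were picked. The members' mean standardised level was itself highest in tumor 4 (0.891), followed by tumor 1 (0.276).

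Most interferon genes were near or at 0 in tumors 1 to 6. Of 21 ligand genes listed, 16 were tested in tumors 1 to 6 against controls, with 0 called higher and 4 lower, and Ifnb1, Ifna2, Ifna15 and Ifne are those 4. The 4 of 16 are near the 20.3% of all genes called lower in that fit. Ifnb1 had 0.130 CPM in tumor 2 and 0 in the 5 other tumors, against 0.398, 0.728 and 0.567 CPM in the controls, and Ifna2 had 0.130 CPM in tumor 2 and 0.0398 CPM in tumor 5 with 0 elsewhere, against 0.535 to 0.765 CPM in the controls. In the controls these 4 genes stood at 0.614 (Ifne, control 1) to 1.435 (Ifnb1, control 2) times the density of the median receptor gene, within the range of stray reads. A total of 3 counts stands for 0.120 to 0.409 CPM in tumors 1 to 6 and 0.0994 to 0.121 CPM in the controls. Ifna16 and Ifng, the type II interferon, are named after their values were seen. Ifna16 had 1.56, 0.998, 2.09, 0.919, 2.84 and 1.44 CPM in tumors 1 to 6, a level like that of Isg15, against 1.34, 1.28 and 1.98 CPM in the controls (log2 fold change -0.12, edgeR adjusted p = 0.872). Ifng had 18, 6, 1, 25, 0 and 0 counts in tumors 1 to 6 (1.92, 0.782, 0.124, 3.41, 0 and 0 CPM), against 0.411, 0.364 and 1.01 CPM in the controls. Its r with Ifit1 over those tumors was 0.945 and with Irf7 0.734 (n = 6, a description), and tumors 4 and 1, with the most Ifng counts, also had the most Ifit3.

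Of the receptors and signal proteins, 7 of 11 were called higher in tumors 1 to 6 and 0 lower, with a median log2 fold change of 1.61 (all genes -1.29). For this list and those that follow, 19.6% of the 38522 genes in that fit were called higher and 20.3% lower. Jak1, a kinase that the interferon and interleukin-7 receptors share, had 99.4 to 211 CPM in tumors 1 to 6, against 5.89 to 6.94 CPM in the controls (log2 fold change 4.36). Jak2 (3.27), a kinase of the interferon-gamma receptor, and Ifngr1 (2.84), a chain of that receptor, were also higher.
Of the 19 nucleic acid sensors and adaptors, 8 were called higher and 0 lower (median 0.79), led by Trex1 (2.90), a DNA exonuclease with at most 2.54 CPM in tumors 1 to 6, Adar (2.47), the RNA-editing deaminase, Irf3 (2.08) and Ikbke (1.79). Of 43 other interferon-induced genes, 21 were called higher and 1 lower (median 1.33). The higher ones were led by Mx2 (3.63), Trim30a (3.45), the nuclear body protein Sp100 (3.02) and Samd9l (2.84), and Phf11d was lower (-1.36). Of 21 interferon-gamma-induced genes, 8 were called higher and 0 lower (median 0.83), led by the immunoproteasome subunit Psmb8 (4.07), the factor Irf1 (3.32), the peptide transporter Tap1 (2.84) and the GTPase Igtp (2.81). Of 7 brakes tested, 5 were called higher and 0 lower (median 2.54), led by the phosphatase Ptpn6 (4.75), the ubiquitin ligase Cblb (4.08), the phosphatase Ptpn11 (2.56) and Pias1 (2.54). Some of these folds rest on low control levels, such as 0.0633 to 0.284 CPM for Trex1, 1.63 to 3.13 for Psmb8 and 1.55 to 2.67 for Ptpn6. Sp100 had 14.7 to 15.1 CPM there. The part of stray reads in these control levels was not tested.
The same lists with library totals, where the median of all genes was -3.70, had 1 higher and 5 lower receptors and signal proteins, 0 and 13 sensors, 0 and 17 other interferon-induced genes, 1 and 12 interferon-gamma-induced genes and 2 and 2 brakes, so these directions do not hold on every scale. On log2(TPM + 1), where the median of all genes was -1.40, the interferon-gamma-induced genes had a median of -1.49 with 9 of 21 above that of all genes, 2 called higher and 15 lower. On that scale 7 of 11 receptors and signal proteins, 11 of 19 sensors, 24 of 43 other interferon-induced genes and 5 of 7 brakes lay above the median of all genes, so the position relative to other genes does not hold for every list either. In all 9 tumors against controls and in tumors 7 to 9 against controls, 0 genes of any of these 6 lists passed edgeR's test. With the 9 members, 42 of 127 tested genes in the fit of all tumors had an unadjusted p under 0.05 (18.0% of all genes), as did 65 of 126 in that of tumors 1 to 6 (54.2% of all genes) and 11 of 124 in that of tumors 7 to 9 (9.04% of all genes), so the last 2 counts are near the background.

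Over tumors 1 to 6 most other interferon-induced genes ran with Ifit1 and Irf7 and against Mx1, and the median gene leaned the same way more weakly. Of 42 with a value, 39 had a positive r with Ifit1 (median 0.568) and 39 with Irf7 (median 0.562), whereas 34 had a negative r with Mx1 (median -0.418). Over 20493 genes the median r was 0.132 with Ifit1, 0.241 with Irf7 and -0.127 with Mx1. Mx2 had r = 0.911 with Mx1 and was the 1 gene of that list with r of 0.8 or more to it. Ifngr1 had r = 0.878 with Usp18, with 86.4 CPM in tumor 5 and 3.87 to 31.6 CPM in the other 5 tumors. Markers of other cells moved too: NK cell markers, 7 genes, had a median r of 0.897 with Ifit1 (5 at 0.8 or more) and -0.793 with Mx1, and conventional dendritic cell markers, 9 genes, had 0.726 with Ifit1 and -0.795 with Mx1 (9 of 9 negative).
The dendritic cell markers summed to 106, 43.5, 55.3, 78.2, 18.7 and 16.6 CPM in tumors 1 to 6, between 29.3 and 31.7 CPM in tumors 7 to 9 and 29.5 to 30.9 CPM in the controls. NK cell markers summed to 21.5 to 417 CPM in tumors 1 to 6, between 26.1 and 35.2 CPM in tumors 7 to 9 and 21.4 to 29.1 CPM in the controls, and in tumors 1 to 6 most of that sum was Gzma, with 18.6 to 404 CPM. Of the plasmacytoid dendritic cell markers 6 of 9 could be given an r, with a median of -0.00047 with Ifit1. Macrophage markers summed to 24.2 to 184 CPM in tumors 1 to 6, between 18.9 and 22 CPM in tumors 7 to 9 and 19.1 to 23.0 CPM in the controls, and tumor 4, high for the members, had 38.6 CPM of them. All 10 macrophage markers had a positive r with Ifit1 (median 0.217) and a negative one with Mx1 (median -0.724). Thymic epithelial markers summed to 26.4, 26.4, 12.3, 25.1, 5.42 and 6.37 CPM in tumors 1 to 6, between 32.9 and 36.3 CPM in tumors 7 to 9 and 27.2 to 35.4 CPM in the controls. The 5 of 8 that could be given an r had a median of 0.727 with Ifit1, 0.757 with Irf7 and -0.873 with Mx1, and 2 of 8 were at 0 counts in each of tumors 5 and 6. No NK cell marker and no conventional dendritic cell marker was at 0 counts in tumors 1 to 4, while in tumor 5, low for the members, 2 of 7 and 1 of 9 were, and in tumor 6 1 of 7 and 0 of 9. Of the plasmacytoid markers 1 of 9 was at 0 in each of tumors 2, 5 and 6. The median receptor gene also had 1.07 to 3.57 counts per kilobase in tumors 1 to 4, and 0 and 0.303 in tumors 5 and 6. B cell markers summed to 2.37 to 18.6 CPM in tumors 1 to 6 and 22.8 to 24.5 CPM in the controls. The 3 of 6 that could be given an r had a median of 0.654 with Ifit1 and -0.831 with Mx1. In each of tumors 5 and 6, 2 of these 6 were at 0 counts. The part of these cells in the members' levels, and of stray reads in the marker levels, was not tested. The T cell markers, at 1722 to 2194 CPM, had median r of 0.04 with Ifit1 and 0.10 with Mx1.

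For Stat2 the counts lay on different transcripts in the 2 kinds of library, while for Irf7, Oasl2, Usp18 and Rsad2 the ranges overlapped between tumors 1 to 6 and the controls. Retained-intron transcripts took 25.8%, 23.6%, 24.3%, 43.6%, 8.62% and 32.9% of the Stat2 counts in tumors 1 to 6, 77.8%, 83.4% and 75.5% in tumors 7 to 9 and 69.1%, 83.9% and 82.0% in the controls. These ranges did not overlap between tumors 1 to 6 and the controls, and 1 retained-intron fragment of 459 bases alone held 115 to 187 of the 245 to 287 control counts. The 2 full-length coding transcripts of Stat2 together held 56.4% to 91.4% in tumors 1 to 6. For Irf7 the retained-intron share was 0% to 77.1% in tumors 1 to 6, between 78.0% and 88.0% in tumors 7 to 9 and 67.5% to 84.2% in the controls. For Oasl2 it was 27.0% to 78.7% in tumors 1 to 6, between 71.6% and 86.2% in tumors 7 to 9 and 69.7% to 77.7% in the controls, so the level of Oasl2 in the controls, high on all transcripts, was 12.7% to 21% coding. Usp18 had 64.0% to 86.3% on coding transcripts in tumors 1 to 6, between 64.8% and 89.5% in tumors 7 to 9 and 51.8% to 82.9% in the controls, and Rsad2 had 46.5% to 100% in tumors 1 to 6, between 36.8% and 89.6% in tumors 7 to 9 and 10.2% to 54.0% in the controls. Ifit1, Ifit3 and Isg15 had all their counts on coding transcripts in every library. Mx1 had 45.7% to 71.6% on coding transcripts in tumors 1 to 6, between 20.5% and 35.0% in tumors 7 to 9 and 40.3% to 46.1% in the controls, and 1 transcript marked for nonsense-mediated decay had 609 and 449 counts in tumors 5 and 6 and 0 in tumors 7 to 9 and the controls.

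**Figure D5:**
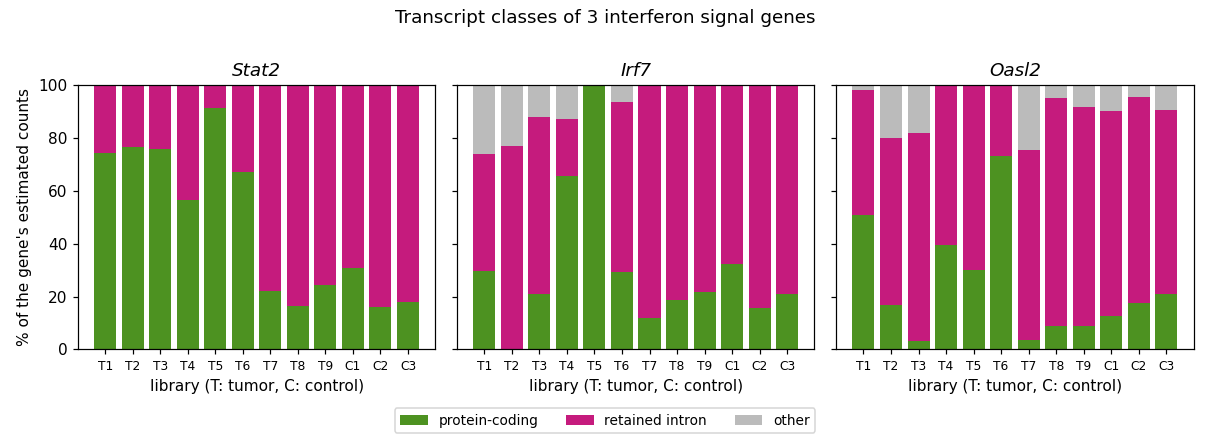
Stacked bars give the percentage of each gene's estimated counts on protein-coding (green), retained-intron (pink) and other (grey) transcripts in each library, for Stat2, Irf7 and Oasl2. The retained-intron share of Stat2 is 8.62% to 43.6% in tumors 1 to 6, between 75.5% and 83.4% in tumors 7 to 9 and 69.1% to 83.9% in the controls.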

How the data were processed

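Per the file headers, the authors deposited estimated counts and TPM values for each of 128622 transcripts in every library. The tools named by the submitters' processing notes are kallisto and FastQC, with mm10 as the build, and versions are not given in these sources. Counts were summed by gene symbol and rounded. Gene positions came from GENCODE M21 on GRCm38 (mm10), and 51633 of 51826 gene identifiers matched. Genes were tested with edgeR 4.0.16 (TMM factors, filterByExpr by group, quasi-likelihood F test, Benjamini-Hochberg adjusted p under 0.05) on all genes, in R 4.3.3. The script was tested on simulated data with known answers. The 3 fits ran on 40484, 38522 and 36420 genes. Alternatives were RLE factors, library totals, no or a stricter filter (50 counts in 3 libraries), DESeq2 1.42.0, limma 3.58.1 on log2 TPM, a replicate block, a content term, and leaving out libraries.

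The 9 members and all gene lists were chosen with earlier results of these data known. Named genes are the members, up to 4 called genes by fold in each list (otherwise those of highest CPM), and the 10 genes most like the members' mean. A gene that this rule also picks is not reported here. Tumors and controls share replicate numbers 1 to 3, and the same-numbered pairs had correlations of -0.035, 0.0464 and 0.0129, none over 0.1. Poisson intervals at 95% cover counting error only.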

Additional observations from a re-analysis of the deposited data

Results flagged for a closer look

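Among 47 named genes, each checked over the 9 tumors and over tumors 1 to 6, these values stood apart from the other libraries by a gap larger than Dixon's 95% limit, which chance passes in about 1 of 20 groups. Most were in tumor 4 among tumors 1 to 6. Ifit1 was 19.8 CPM there. Tumor 4 also held the highest Samd9l (68.8 CPM), Tap1 (64.0 CPM), Pitpnc1 (44.5 CPM), H2-Q4 (129 CPM), Ccl5 (21.3 CPM), Gimap3 (24.3 CPM) and Tgtp2 (14.8 CPM), each apart both over 9 tumors and over tumors 1 to 6. Oas2 (13.9 CPM) stood apart over the 9 tumors, and Ptprk (15.4 CPM) over tumors 1 to 6. Pitpnc1, H2-Q4, Ccl5, Gimap3, Tgtp2, Oas2 and Ptprk were named for a pattern that tumor 4 leads, so these gaps are not independent of that choice. Ifna15 was at 0.273 CPM in tumor 4, on 2 counts.

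Tumor 5 stood apart for Mx2 (131 CPM) and Ifngr1 (86.4 CPM), and tumor 6 for Cblb (165 CPM), over both sets. In tumor 2 Ifnb1 and Ifna2 were each at 0.130 CPM, on 1 count.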

How the results depend on the processing

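For all 9 tumors against controls the number of genes called depended on the tool. With 0 higher and 2 lower in edgeR, the stricter filter and the content term gave 0 lower, DESeq2 gave 4079 higher and 53 lower, limma gave 125 higher and 32091 lower on log2(TPM + 1) and 114 and 30997 on log2(TPM + 0.1), tumors 1 to 6 alone gave 7562 and 7820, tumors 7 to 9 alone gave 9 and 9, and leaving out single libraries gave 0 higher and 0 to 3 lower. The cause was not tested. A pairing of the libraries by replicate number was not shown. The fit with the replicate block gave 8363 genes higher and 2319 lower, with Usp18 at a log2 fold change of 2.03 and Mx1 at 1.17, both called, and Ifit1 reversed at -0.040.

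Of the log2 fold changes in all 9 tumors, 68 alternative values kept direction and call, 10 gained a call and 30 reversed. Library totals gave -0.91 for Ifit1, -1.51 for Ifit3, -1.41 for Irf7, -1.26 for Stat2 and -0.36 for Usp18. On log2(TPM + 1) the values were -0.63 for Mx1, -1.33 for Ifit1, -1.04 for Ifit3, -0.70 for Irf7, -2.73 for Stat2 and -1.10 for Usp18, and on log2(TPM + 0.1) they were -1.09, -2.11, -2.01, -1.24, -2.99 and -1.46 in the same order. With the content term Isg15 was 0.45, Irf7 -0.29, Oasl2 0.34, Usp18 -0.19 and Rsad2 0.29, and in tumors 7 to 9 alone these 5 were 0.43, -0.31, 0.33, -0.20 and 0.28. Coding transcripts alone gave 0.38 for Rsad2, and tumors 1 to 6 alone gave -0.19 for Ifit1. In tumors 1 to 6, library totals reversed Ifit3 (-2.12), Irf7 (-1.64), Stat2 (-1.72) and Usp18 (-0.15), and log2(TPM + 1) reversed Mx1 (-0.62), Ifit3 (-1.26), Irf7 (-0.72), Stat2 (-3.60) and Usp18 (-1.11). Leaving out single libraries there gave -0.79 to 0.22 for Ifit1 and -0.0068 to 0.76 for Ifit3, and in tumors 7 to 9 -0.20 to 0.34 for Ifit3, -0.032 to 0.47 for Rsad2 and -0.40 to 0.062 for Usp18.

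The median r of 0.305 became 0.112 with RLE factors, 0.0573 with coding transcripts alone, 0.754 without Mx1 and Usp18, and 0.117 to 0.581 with 1 tumor left out, and it lay within 0.153 of 0.305, the SD of those values, with library totals (0.153), TPM, a pseudocount of 0.1, totals outside mitochondrial and satellite-like counts and receptor density subtracted. The alternatives with coding transcripts, other totals, subtracted density, 21 pairs and other scalings of tumors 1 to 6 were chosen after seeing the data. Depth limits Isg15, Ifit3 and Rsad2 most, which had 7.29 to 51.7 counts in each of tumors 1 to 6.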
